A study of Homo sapiens with 16 samples.

Results

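The distribution of dimethylated lysine 9 of histone H3 (H3K9me2) was described in quiescent wild-type human fibroblasts from 2 ChIP libraries, A and B, each set against 2 input libraries, A and B. These were 4 of the 16 libraries of the series, chosen by their labels for genotype, serum and antibody. The wild-type cells were the parental BJ-5ta line, foreskin fibroblasts immortalised with the telomerase subunit hTERT, and they had been kept in 0.1% fetal bovine serum for 10 days to bring them out of the cell cycle. For comparison, wild-type cells proliferating in 10% serum were used, as were ΔLEO1 cells in 0.1% serum, which carry a CRISPR/Cas9 deletion in LEO1, come from 1 clone and lack a subunit of the PAF1 complex that travels with RNA polymerase II. Every condition had 2 ChIP and 2 input libraries of the same hTERT-immortalised line. In the labels of the libraries the antibody is called H3, whereas the design text and the methods name H3K9me2. Reads had been counted over 237274 distinct windows of 2000 bp centred on transcription start sites (TSS) and over 16092 peak regions.

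H3K9me2 is placed mainly by the enzymes EHMT2 (G9a) and EHMT1 (GLP) and is a mark of silent chromatin. In differentiated cells it covers long gene-poor domains at the nuclear edge and many genes of other cell types, and it is scarce at active promoters. Promoters rich in CpG dinucleotides are mostly those of housekeeping and developmental genes, while CpG-poor promoters mostly belong to tissue-specific genes.

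Over distinct TSS windows the ChIP libraries held 2922936 reads (A) and 2373599 reads (B), and the inputs 6137172 (A) and 5934073 (B). The median window therefore had 10 and 8 ChIP reads and 28 and 27 input reads. Values below are counts per 1e6 reads of these totals (CPM), so that 0 on the log2 scale is the average over TSS windows, and a change of the mark everywhere at once cannot be seen. Across 202995 windows the log2 CPM of ChIP A and B correlated with a Pearson r of 0.845, against 0.539 for the inputs. The labels do not say whether A and B were separate cultures, so the p-values measure only the spread between these libraries.

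The promoters of 6 genes carry the contrasts described below and are shown from 250 bases before to 50 bases after the RefSeq start (assembly GRCh38.p14, 5′ to 3′ on the strand of the gene, CG dinucleotides in capitals). TRIM71 and PDE1C lay in the most enriched windows, RBM14 and EIF4A1 in the most depleted, JUN is from the immediate early genes and UGT1A3 from the UDP-glucuronosyltransferases. TRIM71 is at chr3:32817747-32818046 (+), PDE1C at chr7:32428175-32428474 (-), RBM14 at chr11:66616380-66616679 (+), EIF4A1 at chr17:7572575-7572874 (+), JUN at chr1:58783998-58784297 (-) and UGT1A3 at chr2:233728792-233729091 (+).
TRIM71: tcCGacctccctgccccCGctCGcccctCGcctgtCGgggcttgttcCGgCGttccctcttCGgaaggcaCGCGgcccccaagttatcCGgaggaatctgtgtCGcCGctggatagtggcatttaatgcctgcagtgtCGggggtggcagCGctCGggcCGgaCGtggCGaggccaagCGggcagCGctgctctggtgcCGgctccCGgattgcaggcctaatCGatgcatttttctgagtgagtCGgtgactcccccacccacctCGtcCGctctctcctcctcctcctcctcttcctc
PDE1C: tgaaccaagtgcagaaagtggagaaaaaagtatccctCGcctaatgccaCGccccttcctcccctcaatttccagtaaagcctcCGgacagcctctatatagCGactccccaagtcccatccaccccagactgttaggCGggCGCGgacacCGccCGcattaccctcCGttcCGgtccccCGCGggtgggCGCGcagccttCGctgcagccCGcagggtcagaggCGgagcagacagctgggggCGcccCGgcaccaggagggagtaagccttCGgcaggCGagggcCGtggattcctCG
RBM14: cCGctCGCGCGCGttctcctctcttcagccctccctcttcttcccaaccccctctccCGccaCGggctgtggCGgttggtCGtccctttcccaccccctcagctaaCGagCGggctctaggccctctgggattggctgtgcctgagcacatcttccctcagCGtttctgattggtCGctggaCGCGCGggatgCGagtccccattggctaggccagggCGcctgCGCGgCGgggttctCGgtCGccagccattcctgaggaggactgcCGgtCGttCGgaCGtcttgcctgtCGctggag
EIF4A1: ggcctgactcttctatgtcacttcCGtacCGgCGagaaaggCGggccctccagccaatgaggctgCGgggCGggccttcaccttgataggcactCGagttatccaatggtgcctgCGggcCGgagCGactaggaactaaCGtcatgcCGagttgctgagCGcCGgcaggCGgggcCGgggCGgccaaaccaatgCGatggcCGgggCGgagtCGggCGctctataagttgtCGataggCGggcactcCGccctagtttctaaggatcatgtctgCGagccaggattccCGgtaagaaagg
JUN: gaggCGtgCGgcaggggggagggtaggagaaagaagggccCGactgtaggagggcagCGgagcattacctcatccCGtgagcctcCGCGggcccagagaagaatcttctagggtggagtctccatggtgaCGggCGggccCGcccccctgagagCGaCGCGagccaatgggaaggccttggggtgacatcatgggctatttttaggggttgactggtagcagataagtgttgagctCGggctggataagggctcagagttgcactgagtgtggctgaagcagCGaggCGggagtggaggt
UGT1A3: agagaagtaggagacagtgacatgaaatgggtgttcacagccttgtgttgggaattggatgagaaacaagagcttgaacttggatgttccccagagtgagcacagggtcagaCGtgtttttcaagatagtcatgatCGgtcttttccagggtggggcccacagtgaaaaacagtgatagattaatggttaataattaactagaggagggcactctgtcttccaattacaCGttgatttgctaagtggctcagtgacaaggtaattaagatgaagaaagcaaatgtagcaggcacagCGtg
CG occurred 27 times in the TRIM71 promoter, 24 in PDE1C, 28 in RBM14, 27 in EIF4A1, 16 in JUN and 4 in UGT1A3. Of all 35116 RefSeq promoters of this length, 96.0% hold at least 1 CG and 48.9% hold 15 or more. The most enriched and the most depleted of these windows thus had promoters of similar CG content.

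TSS windows departed from the average in both directions. Of 202995 windows tested with edgeR's quasi-likelihood test, 47222 (23.3%) were higher in ChIP than in input and 62513 (30.8%) were lower at a Benjamini-Hochberg adjusted p under 0.05. Windows of neighbouring starts overlap, and these calls merged into 28217 higher and 16543 lower loci, so lower calls led by window and higher calls by locus. Large departures were mostly downward, since 19884 windows fell below -2 on the log2 scale and 390 rose above 2. The inputs held 20 or more reads each at 696 windows (221 loci) that had no read in either ChIP library, and the opposite case occurred at 0 windows. Call counts depended on ChIP A. Without it 3 windows were higher and 37 lower, with 34912 and 50065 at an unadjusted p under 0.05, and without ChIP B 19637 were higher and 30454 lower.

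The largest enrichment was found at FSCN2, TRIM71 and PDE1C. At FSCN2 (17:81535146-81537146), which encodes an actin-bundling fascin of the retina, the ChIP libraries gave 13.7 and 8.43 CPM and the inputs 1.79 and 0.674 CPM. At TRIM71 (3:32816997-32818997), a ubiquitin ligase of early development, ChIP gave 12.3 and 11.8 CPM and input 1.14 and 1.69 CPM. Both ChIP libraries lay far above both inputs at each gene, by log2 fold changes of 2.79 ± 0.33 (SE) for FSCN2 and 2.75 ± 0.31 for TRIM71, and the edgeR quasi-likelihood test gave adjusted p-values (Benjamini-Hochberg) of 2.96e-14 and 6.01e-15. PDE1C, a calmodulin-dependent phosphodiesterase of smooth muscle and neurons, had the most similar ChIP values, 21.6 and 21.5 CPM against 3.91 and 2.36 CPM in input (log2 2.61 ± 0.23). The other 7 windows named by the rule were SHROOM4, an X-linked regulator of the actin cytoskeleton, TMEM229A, the 5S ribosomal RNA pseudogene RNA5SP416, SYN1 (synapsin I of synaptic vesicles), PRLHR (a receptor for prolactin-releasing peptide), CCDC33 and the potassium channel gene KCNH4. Their log2 fold changes ran from 2.39 to 2.59. ChIP and input libraries did not overlap at any of the 10 windows because the naming rule required this. Input was low at all 10, with fewer reads in each library than the median window (28 and 27). FSCN2 held 11 and 4 input reads and SHROOM4 7 and 2, so low input adds to these ratios. SYN1 had uneven inputs, 3 and 15 reads, and was not called without ChIP B (edgeR adjusted p = 0.0585), while all 10 windows missed the threshold without ChIP A (adjusted p = 0.0522). RNA5SP416 shares its window with 3 further 5S copies, between which reads cannot be told apart.

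The deepest depletion was found at 10 windows, led by NBR1, RBM14 and CCDC115, at which neither ChIP library held a read. At NBR1, an autophagy receptor (17:43170214-43172214), the inputs held 39 and 49 reads, which with an upper limit of 3 reads over both ChIP libraries makes ChIP at least 12.9-fold lower. RBM14, an RNA-binding coactivator, had 38 and 44 input reads (at least 11.99-fold lower), and EIF4A1, the helicase of translation initiation, had 38 and 43 (at least 11.8-fold lower). The limit was 11.99-fold for CCDC115, a factor of proton pump assembly, 11.8-fold for RBM15-AS1, which shares its window with the RNA-binding gene RBM15, and 11.7-fold for DTL, a subunit of a ubiquitin ligase of DNA replication. It was 11.6-fold for the kinase gene GSK3B and for the noncoding DLEU1 and DLEU2 pair, and 11.4-fold for the phosphatase subunit gene PPP2CA and for ZEB2-AS1, the antisense partner of ZEB2. Input depth set these limits, and counting error alone is covered by them.

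**Figure D1:**
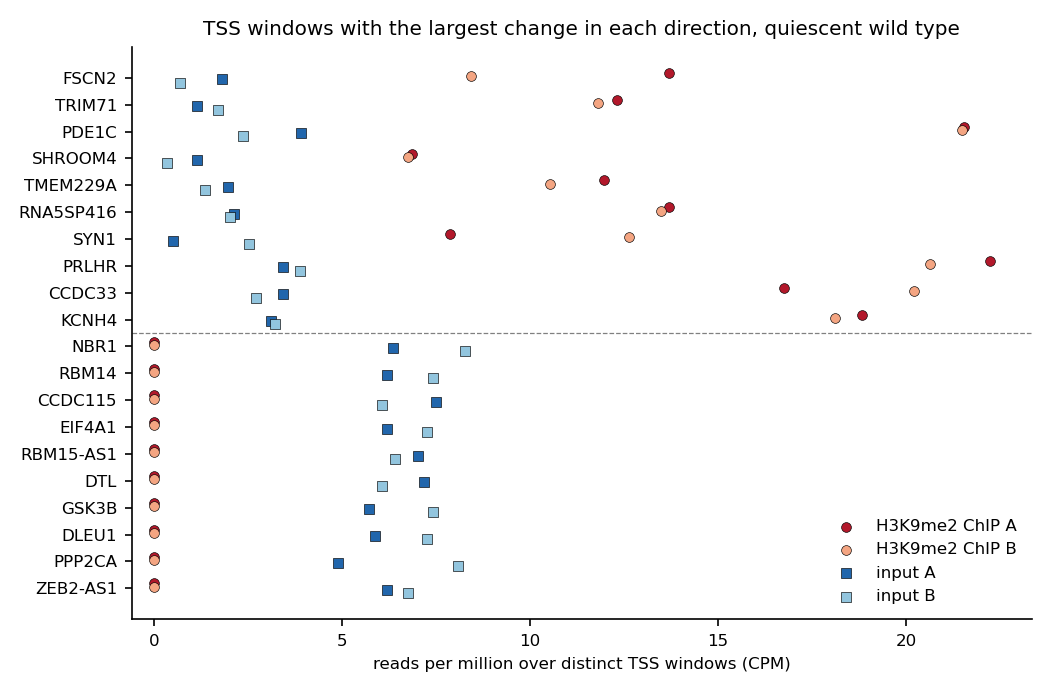
CPM (x axis) in the 2 ChIP libraries (circles) and the 2 inputs (squares) at the 10 windows with the largest enrichment, above the dashed line, and the 10 with the largest depletion, below it. Enriched windows reach 22.2 CPM in ChIP against at most 3.91 CPM in input, and depleted windows sit at 0 CPM in both ChIP libraries.

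Mitochondrial DNA, which is not wrapped in histones, gave the lowest values of the dataset. All 37 of its windows were lower, with 9.30 and 17.5 CPM per window in ChIP A and B against 509 and 523 in the inputs (summed log2 -5.27). ChIP B held more of it than ChIP A, yet both lay far under both inputs. Among the 51 tested windows with over 5 times the median input, the highest were DUX4 copies on chromosomes Y and 3. DUX4L19 gave 104 and 97.7 CPM in ChIP against 31.6 and 29.3 in input (log2 1.72 ± 0.13), DUX4L26 gave a log2 fold change of 1.63, the mucin gene MUC3A 1.33 and the kinase pseudogene ROCK1P1 1.18. These are repeated or near-identical sequences, so each value is that of a group of copies rather than of 1 locus.

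Promoter CpG content ordered the mark. Of the RefSeq promoters, 24043 lay within 500 bp of the centre of a TSS window, and the summed log2 ChIP over input of those windows fell at every step from 0.48 with 0 or 1 CpG to -0.69 with 30 or more. The 2 ChIP libraries gave 0.46 and 0.50 in the first class and -0.67 and -0.72 in the last, so the classes differed by far more than the libraries. Among 4587 tested windows with at most 4 CpGs, 1629 were higher and 410 lower, and among 13521 with 15 or more, 1551 were higher and 7249 lower. CpG-rich promoters were also the more variable. Their log2 fold changes had an SD of 1.21 against 0.793 in CpG-poor ones, and a larger share rose above 1.5 (2.60% against 1.31%) although their median was lower (-0.95 against 0.41). TRIM71 and PDE1C, shown above, were in that CpG-rich and enriched minority. Of 112 RefSeq promoters in windows without any ChIP read, 100 were CpG-rich (89.3%, against 60.0% of all matched promoters) and 1 was CpG-poor.

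Windows further downstream of CpG-rich starts were less depleted. Windows of internal starts were sorted by their distance downstream of the RefSeq start of the same gene. For CpG-rich starts the summed log2 value was -0.74 within 500 bp, -0.37 between 2000 and 5000 bp, -0.06 between 20000 and 50000 bp and 0.34 beyond 100000 bp. These classes held different genes, 10211 within 500 bp, 2644 between 20000 and 50000 bp and 986 beyond 100000 bp. Only long genes reach the far classes, and a change along the same genes was not tested. For CpG-poor starts it was 0.50 within 500 bp and stayed between 0.46 and 0.59 at all distances. Input CPM per window kept between 4.09 and 4.82 in all 16 classes, so the change lay in the ChIP libraries.

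**Figure D2:**
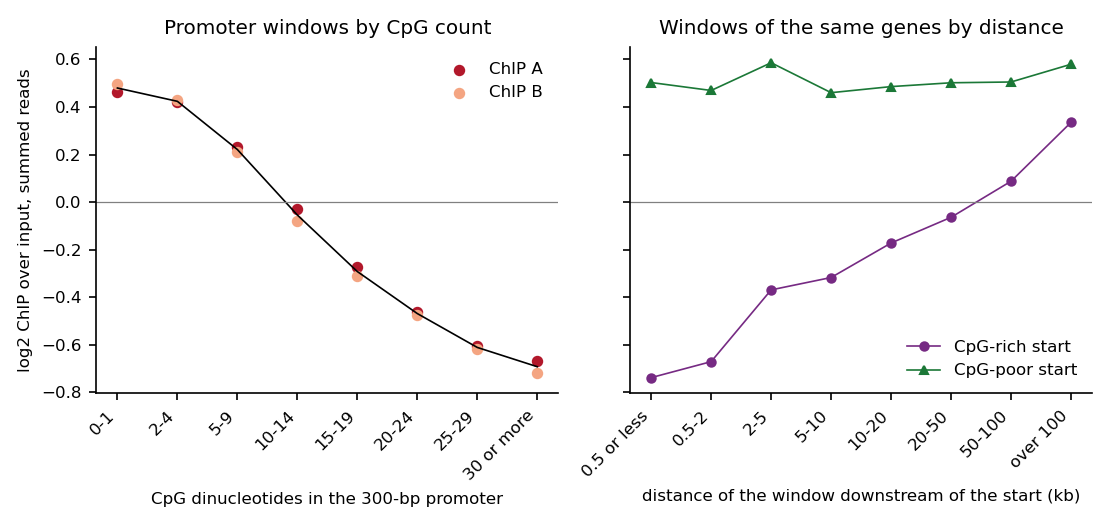
Summed log2 ChIP over input (y axis, both panels) by the number of CpG dinucleotides in the 300-bp promoter (left, a point per ChIP library, line for their sum) and by distance downstream of the start in kb (right, CpG-rich and CpG-poor starts). The left panel falls from 0.48 to -0.69, and on the right CpG-rich starts climb from -0.74 to 0.34 while CpG-poor starts stay near 0.5.

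Enrichment and depletion also met within single genes. Of 15631 genes with tested windows reaching over more than 4000 bp, 8171 had a start called lower by over 1 log2 unit. A start called higher by as much was found in 4453. Both, in separate windows, were found in 1251 (8.00%), at a median distance of 41530 bp. Whether both met more or less often than these counts alone would give was not tested. COL6A1, a chain of type VI collagen, had 3 and 0 ChIP reads against 36 and 29 input reads at its upstream start (21:45980770-45982770), and 49 and 31 against 28 and 29 at a start 20719 bp further into the gene. The fitted log2 fold changes were -2.51 ± 0.48 and 1.59 ± 0.23. The upstream start was nearly empty of the mark in both libraries, and the internal one stood above both inputs. FAP, a fibroblast surface protease, had no ChIP read at its upstream start (27 and 36 in input) and 27 and 26 reads at a start 48011 bp downstream (24 and 24 in input, log2 1.24). CDKN1B, which encodes the cell cycle inhibitor p27, showed the reverse order along the gene, with 45 and 37 ChIP reads against 36 and 38 input reads (log2 1.27) at a start 32324 bp upstream of one that held 1 and 0 ChIP reads against 32 and 41. EHMT1, itself an H3K9 methyltransferase, held 3 and 3 ChIP reads against 33 and 30 at its upstream start and 46 and 35 against 18 and 23 at a start 212806 bp downstream (log2 2.03).

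Gene lists showed which functions lay on each side. A list is described by the calls over its windows, which can overlap, by its median and by its summed reads. Over all windows 23.3% were higher and 30.8% lower, with a median of -0.10. Within 500 bp of CpG-rich starts of any gene 8.12% were higher and 58.5% lower, with a median of -1.08. Lists were not compared within a promoter class. Single genes are given at their window with the most reads in the 4 libraries, a choice that favours windows with more ChIP reads and can pick an internal start.

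Immediate early genes, the transcription factors and phosphatases that serum induces within minutes, were the most depleted nuclear list. Of 91 tested windows 74 were lower and 1 higher, with a median log2 fold change of -1.90. JUN held 0 and 1 ChIP reads against 36 and 37 in input, a ratio 32.0-fold lower with a 95% counting interval of 5.57 to 1282. IER2 held 0 and 0 against 37 and 37 and was at least 10.8-fold lower, and FOSB, JUNB and DUSP1 held 1 to 3 reads per ChIP library. The exception was ATF3, a stress-induced factor, with 34 and 30 ChIP reads against 26 and 26 (log2 1.40 ± 0.25) at its most-read window, while 3 of its 7 windows were lower.

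Lists of protein synthesis, splicing and energy metabolism genes had more windows lower than higher. Windows near CpG-rich starts of any gene did so too (58.5% lower). Of 644 windows of cytosolic ribosomal protein genes 396 were lower and 9 higher (median -1.21), and RPL18 held 0 and 0 ChIP reads against 32 and 37. Processed pseudogenes of the same family went the other way, with 657 of 1252 windows higher and 44 lower (median 0.67). Of 212 windows of splicing factors 149 were lower and 2 higher, led by SRSF1, which held 2 and 1 ChIP reads against 40 and 34 and was 10.8-fold lower (counting interval 3.56 to 53.7). By windows, proteasome subunits (188 of 324 lower, 18 higher) and subunits of respiratory complex I (175 of 298 lower, 4 higher) were similar. NDUFA4 of complex I held 0 and 2 ChIP reads against 39 and 45. By gene, at the most-read window, 9 of 35 proteasome genes were lower, 6 higher and 20 neither (median -0.20). Of 34 complex I genes 16 were lower and 3 higher, and of 30 splicing factors 16 were lower and 1 higher. Replication-dependent histone genes had 36 of 76 windows lower and 5 higher. Their lowest gene was H2BC21, with 1 and 0 ChIP reads against 39 and 33, and their highest H4C7, with 43 and 26 against 30 and 29.

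By windows, genes that mark fibroblasts and genes that mark other lineages lay on opposite sides. Of 243 windows of fibroblast genes 155 were lower and 29 higher (median -1.56), while of 270 windows of other-lineage genes 112 were higher and 19 lower (median 0.46). By gene, at the most-read window, fibroblast genes were divided, with 12 of 28 lower, 7 higher and 9 neither (median -0.28). Of 29 other-lineage genes 21 were higher, 2 lower and 6 neither (median 0.78). COL1A1, the main chain of type I collagen, held 1 and 0 ChIP reads against 37 and 37 in input, a ratio 32.5-fold lower (counting interval 5.65 to 1299.6). LUM (lumican) held 1 and 0 against 32 and 32, and VIM (vimentin) held 1 and 3 against 38 and 38, 8.34-fold lower (counting interval 3.13 to 31.4). Both ChIP libraries lay below both inputs at all 3 genes. Among fibroblast genes the highest were the type VI collagen genes COL6A1 and COL6A2 and TGFBI, a matrix adhesion protein with 45 and 39 ChIP reads against 31 and 35 (log2 1.46 ± 0.23). In the other-lineage list SNAP25, a fusion protein of the synapse, held 60 and 33 ChIP reads against 21 and 24 (log2 2.10 ± 0.24), and ALB (albumin of the liver) held 31 and 31 against 18 and 27 (log2 1.54 ± 0.26). INS (insulin) and APOB (a liver apolipoprotein) were the exceptions. INS held 2 and 1 ChIP reads against 26 and 17, 6.29-fold lower (counting interval 2.01 to 31.7), and APOB had a log2 fold change of -1.18 ± 0.36 (edgeR adjusted p = 0.00293). These counts are of DNA and do not measure expression.

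Several families of tissue-specific genes had high shares of windows above input. UDP-glucuronosyltransferases, the conjugating enzymes of liver and gut, were the highest list by summed reads, with 32 of 43 windows higher and 0 lower. UGT1A10 gave 14.4 and 12.2 CPM in ChIP against 4.73 and 3.20 in input (log2 1.64 ± 0.25), and UGT1A3 gave 12.7 and 17.3 against 4.07 and 5.06 (log2 1.60 ± 0.24). The UGT1A first exons lie side by side on chromosome 2, so their windows are not independent. Cancer-testis genes of the X chromosome, normally read in germ cells, had 38 of 68 tested windows higher and 0 lower, led by GAGE13 (log2 2.03), one of several near-identical copies. GABA and glutamate receptor genes had 234 of 395 windows higher and 20 lower. The lowest were the NMDA receptor genes GRIN2D (log2 -1.60) and GRIN2C (-1.53).

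Most sensory, skin and immune receptor lists had more windows higher than lower. The share of windows higher was 61.8% for class I olfactory receptors, 51.9% for class II, 58.9% for T cell receptor segments, 52.2% for keratin-associated proteins and 55.9% for the epidermal differentiation complex, and at most 2.63% of the windows of these lists were lower. Immunoglobulin segments had 51 of 139 windows higher and 14 lower (median 0.39), defensins 13 of 55 higher and 2 lower, and interferon alpha genes 1 of 14 higher and 0 lower, so clustered families differed in these shares. OR51J1 held 40 and 29 ChIP reads against 23 and 22 (log2 1.69), and IVL, involucrin of the cornified envelope, held 43 and 30 against 27 and 21 (log2 1.68). OR52E5 was the lowest class I receptor, with 3 and 2 ChIP reads against 27 and 39 (log2 -2.08). Long intergenic noncoding RNAs were higher at 4947 of 9899 windows and lower at 735.

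By windows, developmental and regulatory families were divided. HOX genes, which fix position along the body axis, had 22 of 107 windows higher and 28 lower, with a median of -0.02 and a summed log2 of 0.03. The genes of one end of the HOXA cluster were the lowest, with 0 and 1 ChIP reads against 32 and 36 at HOXA9 and 2 and 0 against 31 and 36 at HOXA11, whereas HOXD10 held 27 and 30 against 18 and 23 (log2 1.54). Zinc finger genes of chromosome 19, mostly repressors of retrotransposons, were higher at 29.8% and lower at 17.5% of 1382 windows, and zinc finger genes of other chromosomes were higher at 14.9% and lower at 38.7% of 1406. ZNF568 was the highest of the first group (log2 1.94) and ZNF816 the lowest, with 0 and 1 ChIP reads against 30 and 38. Imprinted genes, which are silent on 1 parental allele, had 71 of 341 windows higher and 39 lower, shares of 20.8% and 11.4%. By gene, at the most-read window, 17 of 21 were higher, 2 lower and 2 neither (median 0.99). At its most-read window MAGEL2 held 40 and 31 ChIP reads against 15 and 24 (log2 1.91 ± 0.26), and IGF2 held 1 and 1 against 31 and 31.

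The enzymes that write and erase H3K9 methylation had 18 of 176 windows higher and 54 lower, shares of 10.2% and 30.7%. At their most-read windows EHMT1 (log2 1.98), its partner WIZ (1.63) and the demethylase gene KDM4C (1.01) were higher, but over all its 15 tested windows KDM4C had 1 higher and 6 lower. SUV39H1, a methyltransferase gene of the X chromosome, held 2 and 0 ChIP reads against 19 and 20 (8.56-fold lower, counting interval 2.22 to 73.1), and SETDB2, KDM4A, KDM3B and KDM4D were also lower. Of the PAF1 complex, WDR61, PAF1 and CDC73 were lower and no window was higher. LEO1 itself held 8 and 12 ChIP reads against 28 and 26 at its first start (15:51970778-51972778), a log2 fold change of -0.22 ± 0.35 with an edgeR adjusted p of 0.607.

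Windows of cell cycle genes were more often lower than higher in these quiescent cells. Of 295 windows 162 were lower and 8 higher (median -1.06). That median was close to the -1.08 of windows within 500 bp of CpG-rich starts of any gene. At the most-read window of each gene, 9 of 38 genes were lower, 4 higher and 25 neither (median -0.15). PCNA, the sliding clamp of replication, held 2 and 1 ChIP reads against 40 and 42 (11.99-fold lower, counting interval 3.96 to 59.4), and the mitotic kinase gene AURKA held 1 and 2 against 33 and 44. MKI67 (log2 0.89), the proliferation marker, and CCNB2 (0.95) were the highest at their most-read windows. For 21 quiescence-regulated genes named by the study, 85 of 164 windows were lower and 6 higher. By gene, at the most-read window, 4 of 20 were lower, 4 higher and 12 neither (median 0.27). The list joins genes that the study found downregulated in low serum with some that it found upregulated. The study found these genes shared between a published quiescence programme and its own RNA-seq lists. Since those lists come from RNA of the same cell line in the same sera, the genes are not independent of this study.

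**Figure D3:**
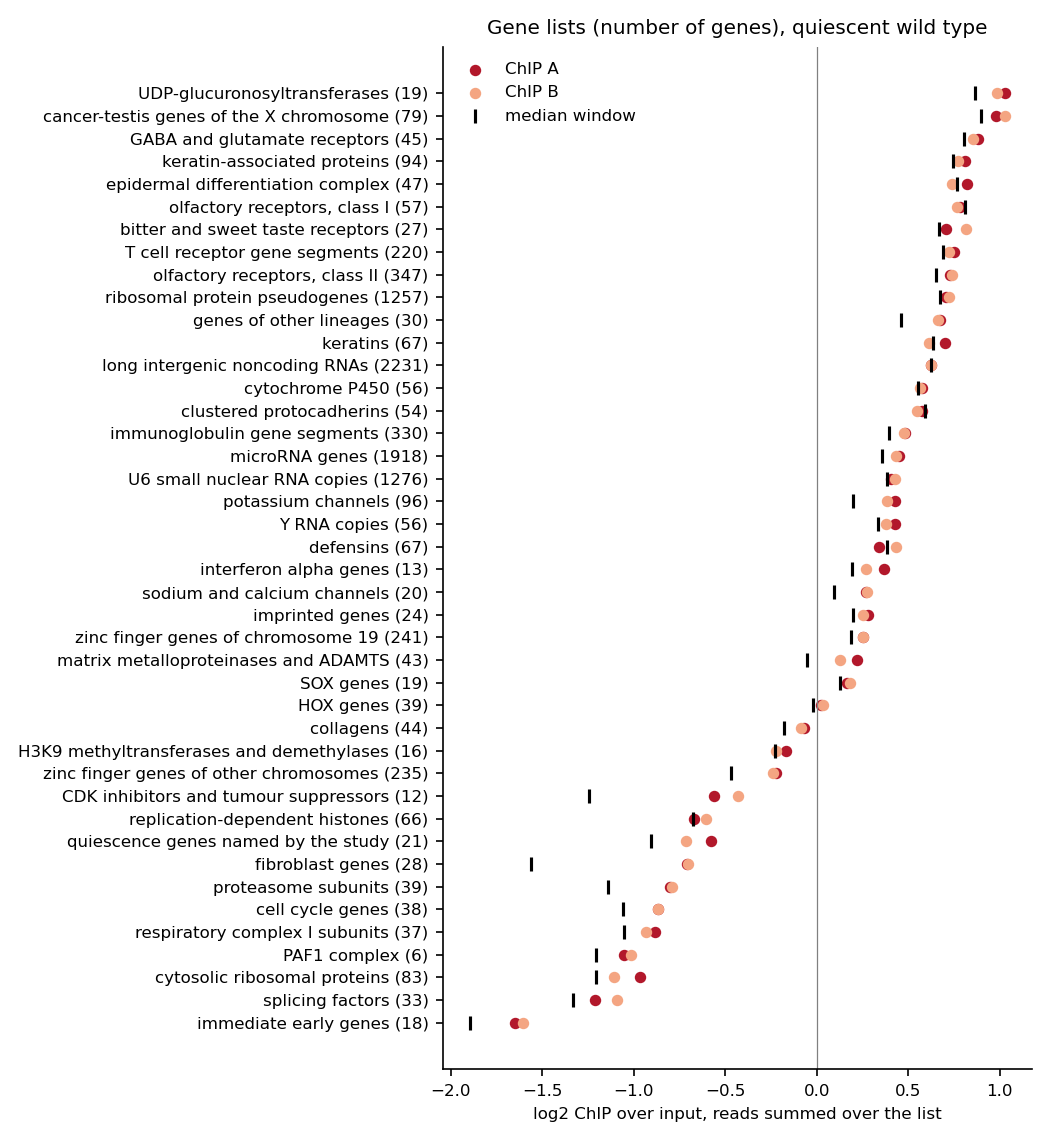
Log2 ChIP over input (x axis, reads summed over all windows of a list) for the nuclear gene lists with the number of genes in brackets, a point for each ChIP library and a tick for the median window. Immediate early genes lie lowest at -1.63 and UDP-glucuronosyltransferases highest at 1.01.

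Chromosomes differed by small amounts in the nuclear genome. Of 25 chromosomes, mitochondrial DNA included, 14 (56%) were higher and 8 (32%) lower by the same test on summed reads. Chromosome 17 was the lowest nuclear chromosome (log2 fold change -0.27), followed by 22 (-0.18) and 16 (-0.10). Chromosome Y was the highest (0.76), followed by chromosomes 21 (0.29), 18 (0.29) and 13 (0.27). Chromosomes 3, 9 and 19 were not called.

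Megabase bins resolved this into domains. Bins were added after the data had been seen, and of 2698 bins with reads enough for the test, 1322 (49%) were higher and 653 (24.2%) lower. The summed value fell with the number of genes in the bin, from 0.62 at 1 to 5 genes to -0.29 above 80 genes. The highest bin with at least 10 tested windows was at 96 Mb of chromosome 3, where the ephrin receptor gene EPHA6 lies, with log2 values of 1.76 and 1.63 in ChIP A and B. Other high bins were a pericentromeric one at 26 Mb of chromosome 20 with FAM182A (1.84 and 1.51) and one at 52 Mb of chromosome 17 with CA10, a carbonic anhydrase-related protein of the brain (1.48 and 1.62). The lowest nuclear bin of this kind lay at 56 Mb of chromosome 10 with the kinetochore gene ZWINT (-1.34 and -1.63), followed by one at 81 Mb of chromosome 17 with ACTG1, P4HB and HGS (-1.19 and -1.30). A bin at 65 Mb of chromosome 11 with MALAT1, RELA and CFL1 gave -1.20 and -1.22. FSCN2, the most enriched window, lies within the depleted bin of chromosome 17, in which 318 of 476 windows were lower and 4 higher.

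Peak regions carried more of the mark, and most lay over 10000 bp from a start. Since peaks are called on ChIP reads, their excess over input is a description. Of 15732 tested regions 15303 (97.3%) were higher and none (0%) lower when scaled by TSS totals, with 15310 at an unadjusted p under 0.05 in either direction. Under TMM factors of the peak table, which centre its regions on 0, 2 were higher and 16 lower. All regions together gave a log2 of 1.999 (2.01 and 1.99 in the 2 libraries). The median distance to a start was 67791 bp, 3.03% lay within 1000 bp, and 10.6% overlapped a TSS window. Whether peak regions avoid starts more than other sequence does was not tested. Windows that overlapped a peak were higher at 3123 of 3842 and lower at 35.

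Repeats made up 64.5% of the peak regions. LTR retrotransposons held 4809 regions, LINE elements 3539 and SINE elements 1400. By summed log2, SVA_A elements (2.45, 43 regions) and LTR12C, a long terminal repeat of an endogenous retrovirus (2.37, 1047 regions), were the highest of those with at least 40 regions, and AluJo (1.69) and AluSz (1.75) were among the lowest. ChIP A and B gave 2.42 and 2.47 for SVA_A and 2.41 and 2.34 for LTR12C. Among annotation classes CpG islands (2.22) and promoters (2.15) stood above introns (1.93) and intergenic sequence (1.94). The strongest named regions were an exon of LINC00593 with 17 and 21 ChIP reads against 3 and 1 (log2 3.28 ± 0.46), the coding exon of POM121L12 with 35 and 32 against 7 and 4 (3.26 ± 0.36), and an SVA_A element nearest to OS9 with 26 and 22 against 2 and 5 (3.19 ± 0.42). A telomere-like simple repeat near RPL23AP82 (22:50807807-50808436) held 279 and 193 ChIP reads against 62 and 50 (3.19 ± 0.28), and an LTR12C nearest to MIR4300HG held 31 and 21 against 3 and 5 (3.19 ± 0.40).

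**Figure D4:**
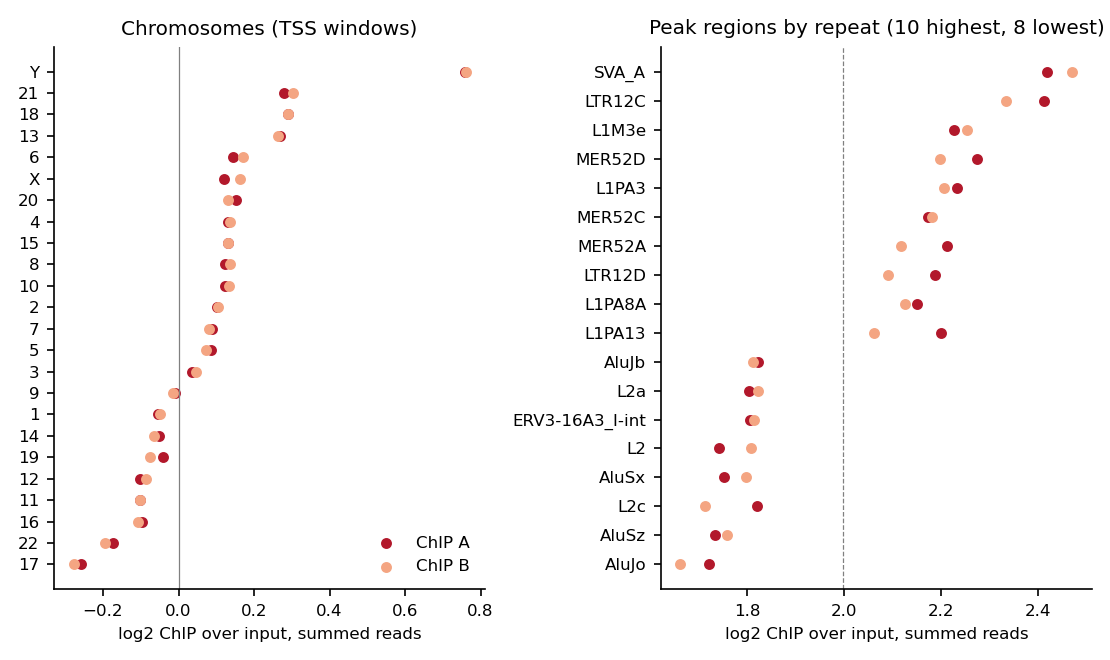
Summed log2 ChIP over input (x axes) for the nuclear chromosomes over TSS windows (left) and for peak regions grouped by repeat (right, 10 highest and 8 lowest of those with at least 40 regions, dashed line at all regions), a point for each ChIP library. Chromosome Y lies at 0.76 and 17 at -0.27, and SVA_A and LTR12C lead the repeats at 2.45 and 2.37.

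Against proliferating cells, few single sites differed. Whether ChIP over input differed between 0.1% and 10% serum was tested over 8 libraries, and 5 of 205451 TSS windows (0.00243%) were higher and 3 (0.00146%) lower in quiescent cells, with 17640 at an unadjusted p under 0.05. At COL6A2 (21:46110450-46112450), a type VI collagen chain, the ChIP libraries held 38 and 19 reads against 23 and 27 in input in quiescent cells, and 4 and 5 against 21 and 42 in 10% serum. The difference was 2.52 ± 0.48 (SE) on the log2 scale with an edgeR adjusted p of 0.0237, and the ChIP libraries of both conditions did not overlap. LOXL2, a matrix lysyl oxidase (31 and 35 ChIP reads against 2 and 11), and LIMD2, a LIM-domain protein (14 and 16 against 11 and 8, with 7 and 7 input reads against 29 and 48), were higher by 2.45 ± 0.45 and 2.52 ± 0.50. At LIMD2 the inputs differed too, with 1.14 and 1.18 CPM in 0.1% serum against 5.54 and 6.04 in 10%. The pseudogene ZNF833P was lower by 1.79 ± 0.37. Leaving out any 1 of the 8 libraries gave between 1 and 11 windows higher and between 0 and 7 lower, and a replicate block gave 0 and 0. Of 16089 peak regions 0 (0%) were higher and 0 (0%) lower in the edgeR test, with 1816 at an unadjusted p under 0.05.

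Over megabase bins the difference was plainer. Of 2700 bins 52 (1.93%) were higher and 251 (9.3%) lower in quiescent than in proliferating cells. The 251 lower bins had a median log2 value of 0.78 in quiescent cells and 1.43 in 10% serum, and the 52 higher bins -0.30 and -0.66, so that in both sets quiescent cells were nearer to 0. The SD of log2 values over 2676 bins was 0.498 and 0.508 in the quiescent ChIP libraries and 0.681 and 0.679 in those of 10% serum. In a bin at 55 Mb of chromosome 20 with RPL12P4, quiescent libraries gave 0.65 and 0.48 and proliferating ones 1.91 and 1.62, and in a bin at 87 Mb of chromosome X with KLHL4 they gave 0.90 and 0.83 against 2.07 and 2.06. In a bin at 77 Mb of chromosome 17 with SEPTIN9 and SEC14L1 the values were -0.12 and -0.08 against -0.58 and -0.79. These bins were picked after their values were seen. Reads in peak regions, as a percent of reads in TSS windows, were 12.5 and 12.3 in quiescent ChIP libraries, 14.2 and 13.2 in 10% serum and 10.3 and 9.91 in ΔLEO1. Both this share and the bin SD were higher in 10% serum than in quiescent wild type. In ΔLEO1 the share was lower than in quiescent wild type, while the bin SD was similar (0.478 and 0.504). The part of this share in the bin differences was not tested. Leaving out 1 library gave 8 (without 10% serum input B) to 62 higher bins and 66 (without the same input) to 287 lower ones.

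**Figure D5:**
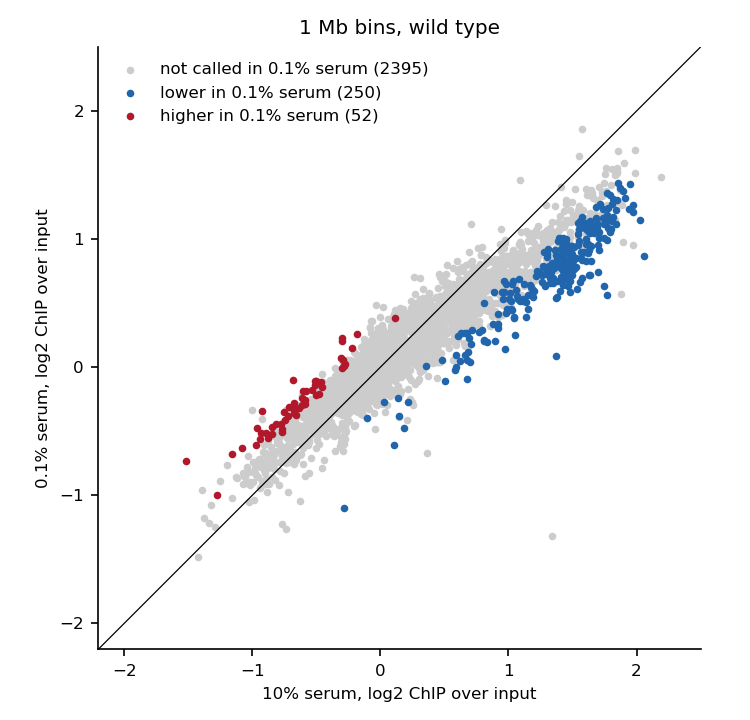
Log2 ChIP over input of each 1 Mb nuclear bin in 10% serum (x axis) and 0.1% serum (y axis), wild type, with the diagonal of equal values; coloured points were called different, and the mitochondrial bin, also lower, is left out. Lower bins (median 0.78 against 1.43) lie at the right below the diagonal and higher bins (median -0.30 against -0.66) at the left above it.

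Against ΔLEO1 cells in the same serum, 33 of 204810 TSS windows (0.0161%) were higher in wild type and 14 (0.00684%) lower, with 17618 at an unadjusted p under 0.05. RBFOX1, a neuronal splicing regulator, held 17 and 10 ChIP reads against 9 and 5 in input in wild type and 5 and 1 against 16 and 20 in ΔLEO1, a difference of 2.94 ± 0.63 (SE). The noncoding LINC01856 was higher by 2.40 ± 0.49, and so was GPR139, an orphan receptor of the brain, by 2.35 ± 0.52, with 34 and 33 ChIP reads against 9 and 1. C5orf24, with 0 and 5 ChIP reads in wild type against 19 and 15 in ΔLEO1, was lower by 2.65 ± 0.54, MIR3677 by 2.63 ± 0.58 and SGCD, a sarcoglycan gene, by 2.49 ± 0.45. Windows called numbered between 0 and 24 higher and 0 and 12 lower when 1 library was left out, and 0 and 0 with a replicate block. Of 16027 peak regions 0 (0%) were higher and 0 (0%) lower by edgeR, with 1693 at an unadjusted p under 0.05. Of 2699 bins 0 (0%) were higher and 0 (0%) lower, with 422 at an unadjusted p under 0.05. The bin SD in ΔLEO1 was 0.478 and 0.504, beside 0.498 and 0.508 in wild type.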

How the data were processed

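Raw read counts were deposited by the authors as 2 tables, one of TSS windows and one of peak regions, with a column per library. Per the methods, ChIP signal was counted with csaw. The submitters' notes name bcl2fastq 2.20.0.422, STAR 2.7.10a, HOMER and the builds hg38 and dm6, the latter for fly spike-in chromatin. How duplicates were handled, what each tool did and which libraries entered peak calling is not given in the sources used here. The deposited counts carry no spike-in scaling and none was applied. Of 272902 TSS rows 237274 were distinct, and for 2399 repeated windows the rows differed, by at most 2 counts. The 18953 windows on other contigs held no reads of these libraries and were not tested. Unassigned columns numbered 0.

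Counts were tested in R 4.3.3 with edgeR 4.0.16 (quasi-likelihood test, filterByExpr, prior count 2, library totals over distinct TSS windows, two-sided, Benjamini-Hochberg, called at adjusted p under 0.05), and code was tested on simulated data. DESeq2 1.42.0 was an alternative. Python 3.11.15 was used for summaries. The table of RefSeq promoters (GRCh38.p14) matched 24043 windows and 18492 symbols, and a promoter was shown only where no other gene's start lay in its window. Counting intervals are exact (Clopper-Pearson, 95%) and cover counting error only. Symbols named are the 10 largest fold changes each way among called windows in which ChIP and input libraries did not overlap and the higher pair held at least 10 reads each, windows of high input apart, the 5 largest for peak regions, 3 each way for differences between conditions, and the extremes of each list described, of which 1 is not reported here. Members and lists were chosen with earlier results of these data known, and 1 Mb bins after the counts were seen. ChIP A and B differed by more than sampling noise (chi-square per degree of freedom 1.01 over TSS windows and 1.49 over peak regions) and were kept as 2.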

Additional observations from a re-analysis of the deposited data

Results flagged for a closer look

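Differences between conditions in ChIP over input passed the edgeR test of the difference itself at a small number of sites. Between 0.1% and 10% serum these were 5 TSS windows higher and 3 lower, and 52 megabase bins higher and 251 lower. Between wild type and ΔLEO1 in 0.1% serum they were 33 windows higher and 14 lower. By gene, the log2 differences against 10% serum were 2.52 for COL6A2, 2.52 for LIMD2, 2.45 for LOXL2 and -1.79 for ZNF833P. Against ΔLEO1 they were 2.94 for RBFOX1, 2.40 for LINC01856, 2.35 for GPR139, -2.65 for C5orf24, -2.63 for MIR3677 and -2.49 for SGCD.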

How the results depend on the processing

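Scaling by TMM moved the median window from -0.10 to -0.05 and left 51027 windows higher and 59938 lower. DESeq2 with the same totals called 20222 higher and 38007 lower, and with its own size factors 22718 and 36360. In peak regions, factors that centre the table removed the excess over input by construction. TMM gave 2 higher and 16 lower, peak-table totals 1 and 4, and DESeq2 with its own size factors 0 and 0. With 1 library left out, TSS windows ran from 3 to 39198 higher and 37 to 48963 lower, peak regions from 13869 to 14529 higher and 0 to 0 lower, and chromosomes from 14 to 15 higher and 8 to 9 lower. Without ChIP A the estimated prior degrees of freedom were 4.54 and the 20 named windows had adjusted p-values of 0.0522 to 0.0526, with log2 fold changes from 2.37 to 2.78 and from -4.21 to -4.05. For differences against 10% serum the windows ran from 1 to 11 higher and 0 to 7 lower and the bins from 8 to 62 and 66 to 287. Against ΔLEO1 the windows ran from 0 to 24 and 0 to 12, and TMM gave 53 higher. The leave-one-out fits of differences, the fits over bins and the fit with both inputs as 1 library (45706 higher, 57328 lower) were chosen after seeing the data.

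Differences between A and B in ChIP and in input correlated at 0.00075 over 202995 windows. Over TSS windows these differences were close to counting noise, with a chi-square per degree of freedom of 1.01 for ChIP and 1.01 for input. The correlation therefore cannot show whether the replicate letters pair the samples. With the letter as a replicate block, 46846 windows were higher and 61723 lower, 15066 peak regions higher and 0 lower, 15 chromosomes higher and 9 lower, and 41 bins higher and 237 lower than in 10% serum. The block left 0 and 0 windows against 10% serum and 0 and 0 against ΔLEO1. Of the gene lists, HOX genes alone changed sign, from 0.03 to -0.0176 without input A, and gave 0.0773 without input B. A median of 10 and 8 ChIP reads limits single windows, and a change of the mark over the whole genome cannot be seen with library totals.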
